A study of Homo sapiens with 8 samples.

Results

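Voltage-gated and related channels for potassium, sodium and calcium were described across the RNAseq of DZNep-treated HEK293T cells. The genes were chosen by name from the table of normalized counts, as protein-coding genes whose GENCODE symbols follow the naming patterns of the KCN, SCN and CACN families. This gave 89 of the 19118 genes of that table, 60 for potassium, 10 for sodium and 19 for calcium channels. Measured expression chose them only in that the table holds genes with more than 80 counts summed over all libraries. Another 45 genes of these names lay outside the table, 7 of them without a read and 38 with 1 to 80 counts.

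The study asked how DZNep changes transcription next to protein abundance and protein thermal stability. HEK293T cells derive from human embryonic kidney and express the large T antigen of SV40. The adenosine analog DZNep (3-deazaneplanocin A) blocks AHCY, the enzyme that clears S-adenosylhomocysteine, and thereby slows many methyltransferases. The 4 DZNep samples received 100 µM DZNep for 48 h and the 4 Control samples received vehicle for the same time, all in the same unmodified line. The labels give DMEM with serum as the medium, where the methods give RPMI. Replicates are numbered 1 to 4 in each group. The study calls them biological replicates, and p-values measure the spread between these samples. Library totals ranged from 25043058 to 44902779 counts.

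Ion channels set the membrane potential and the electrical response of a cell. Each is built from pore-forming alpha subunits that select the ion, and many carry auxiliary subunits that govern trafficking and gating. Potassium channels pull the membrane towards rest, while sodium and calcium channels depolarize it, and calcium entry also acts as an intracellular signal. HEK293 lines are widely used to express cloned channels because their own currents are small.

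The markers of the line were checked first. All 8 HEK293T marker genes were detected, and their summed normalized counts ranged from 36590 to 74266 under vehicle and from 58684 to 76349 under DZNep. Of these markers, KRT8 was higher (log2 fold change 2.44) and LHX1 lower (-1.43). Of 13 markers of other cell types, HBB had no read, and the summed level ranged from 2681 to 5109 under vehicle and from 2943 to 5528 under DZNep, most of it COL1A1. GFAP (log2 fold change 2.74) and MYH6 (5.63) rose and CD3E went from 0 to 84 counts in all, and their part in the results was not tested. In RNA from whole cultures, fewer cells of a type and less RNA per cell cannot be told apart.

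Of the 89 channel genes, 18 were higher and 22 were lower with DZNep, and 49 passed neither call. A gene was called where the adjusted p of edgeR's quasi-likelihood test was under 0.05 and the log2 fold change exceeded 1 in size. Over all 19171 genes tested, 10.6% were called higher and 13.5% lower by the same rule, 24.2% together, against 20.2% and 24.7% of the channel genes. By the adjusted p alone, 22 channel genes were higher and 27 lower (19.1% and 21.8% of all genes). In 21 channel genes every DZNep library lay above every Control library and in 24 below it (19.5% and 19.4% of all genes). The median log2 fold change was -0.15 over the channel genes and -0.03 over all genes tested. Both directions occurred in each of the 3 ion groups: 13 potassium, 2 sodium and 3 calcium channel genes were higher, while 16, 1 and 5 were lower. With the replicate number as a block, 20 were higher and 22 lower, the additions being KCNK7 and CACNG8.

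By subunit role, 12 of 54 pore-forming subunits were higher and 16 lower (22.2% and 29.6%, against 10.6% and 13.5% of all genes tested). The 28 auxiliary subunits had 3 higher and 5 lower (10.7% and 17.9%), nearer to the shares of all genes. The 7 silent Kv subunits, which form no channel alone but join Kv2 subunits and alter their gating, had 3 higher and 1 lower (42.9% and 14.3%). The plot by family shows log2 fold changes with their standard errors.

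**Figure D1:**
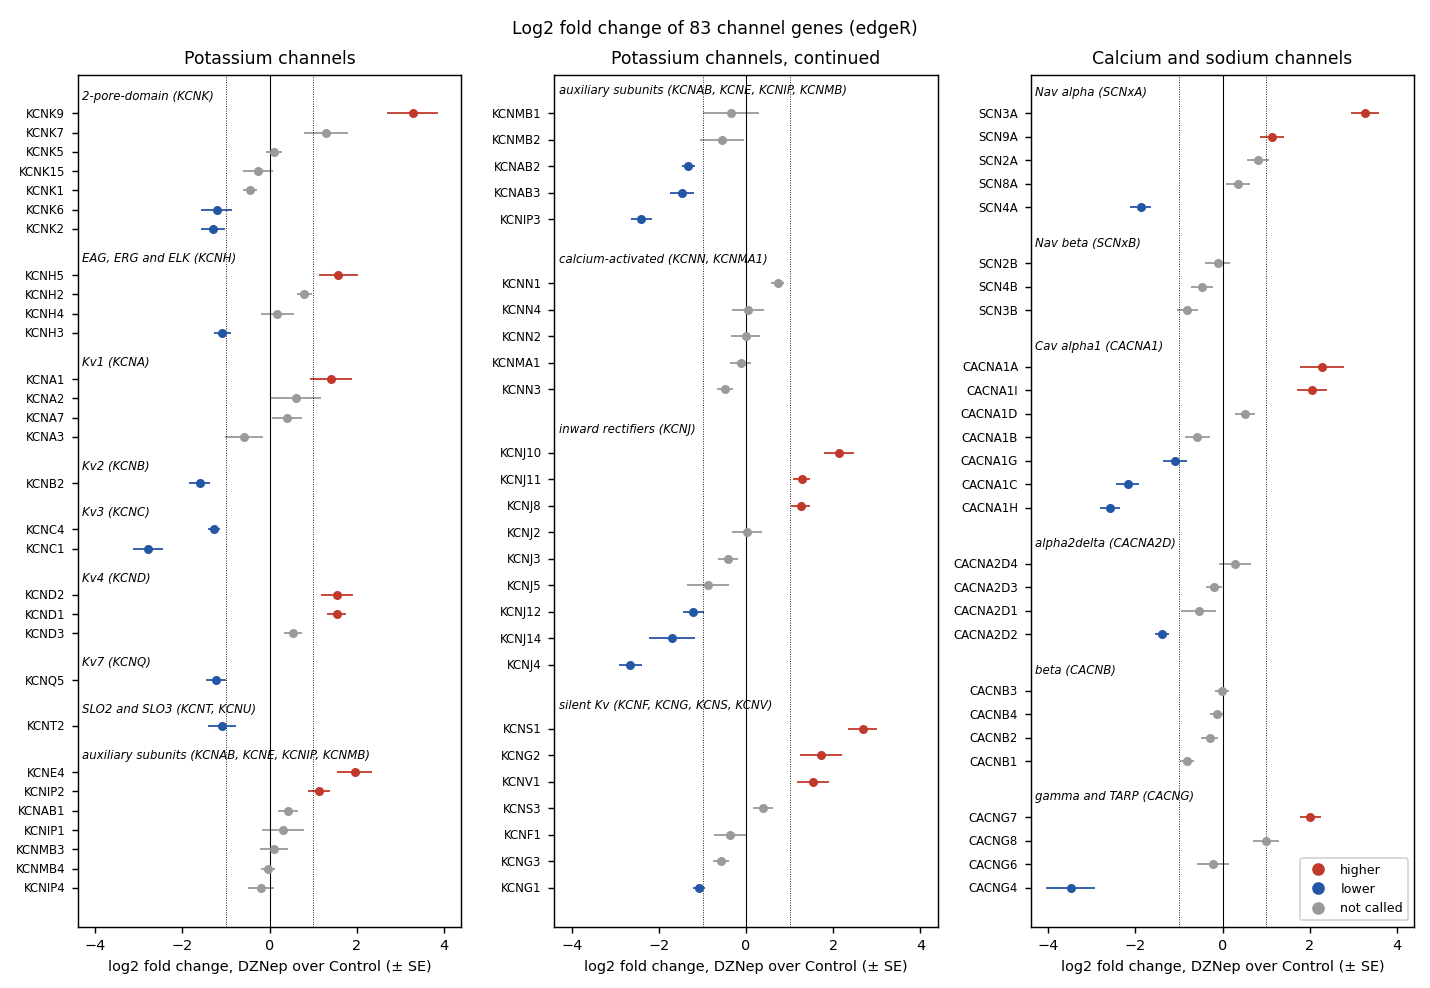
Log2 fold change of DZNep over Control for 83 of the 89 channel genes, grouped by family, with bars of 1 standard error and dotted lines at a log2 fold change of 1 in each direction. Red points are the 18 genes called higher, blue points 21 called lower and grey points 44 not called; the range runs from -3.49 (CACNG4) to 3.28 (KCNK9).

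The genes called in either direction differed in their Control level. Those called higher had a median Control mean of 13.6 normalized counts and a median DZNep mean of 60.7. Those called lower had medians of 258 and 88.3. The calls rest on these same values, so part of the difference in Control level follows from the choice of genes. Splitting the channel genes at their own median of average log2 CPM (log2 of counts scaled to library size, 1.42), a division made after the values were seen, 15 of the 44 genes below it were higher and 4 lower, and 3 of the 45 genes at or above it were higher and 18 lower. Among all genes tested below that level 20.4% were higher and 17.0% lower, and at or above it 6.03% were higher and 11.8% lower. KCNJ8, KCNJ11 and SCN9A were the 3 upper-half genes that rose. Of the 9 channel genes with at most 40 counts over the Control libraries, 7 were called higher. They are SCN3A, KCNK9, KCNS1, CACNA1A, KCNJ10, KCNG2 and KCNA1. Such a gene entered the table through its DZNep reads, so these are no separate support for the count or for the low median Control level. Of the 2 channel genes with at most 40 counts over the DZNep libraries, CACNG4 was called lower, and it entered through its Control reads.

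**Figure D2:**
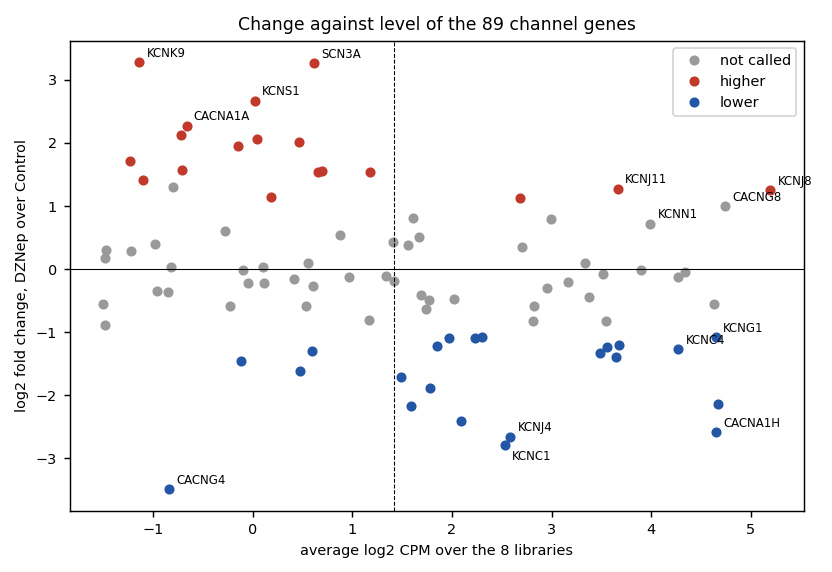
Log2 fold change of DZNep over Control against average log2 CPM over the 8 libraries for the 89 channel genes, with the dashed line at their median of 1.42. Left of the line 15 genes are called higher and 4 lower, and right of it 3 are higher and 18 lower.

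Promoter sequences are given for the member with the highest level and for the called potassium and calcium gene of largest change in each direction, among those that RefSeq's promoter table holds, did not overlap between groups and averaged at least 50 normalized counts in a group. They are shown because DNA methylation in human cells lies at CG dinucleotides and each can be read off directly. The 250 bases before the RefSeq start (GRCh38.p14) are written 5′ to 3′ on the gene's strand, with every CG in capitals. CG reads the same on both strands. The count was 15 for KCNJ8 (chr12:21774707-21774956, minus strand, inside the longer GENCODE gene), 15 for KCND2 (chr7:120272925-120273174, plus strand), 36 for KCNC1 (chr11:17734531-17734780, plus strand), 3 for CACNA1I (chr22:39570503-39570752, plus strand) and 51 for CACNA1C (chr12:2052737-2052986, plus strand, likewise inside it). The first pair and CACNA1I were higher with DZNep, and KCNC1 and CACNA1C lower.
KCNJ8: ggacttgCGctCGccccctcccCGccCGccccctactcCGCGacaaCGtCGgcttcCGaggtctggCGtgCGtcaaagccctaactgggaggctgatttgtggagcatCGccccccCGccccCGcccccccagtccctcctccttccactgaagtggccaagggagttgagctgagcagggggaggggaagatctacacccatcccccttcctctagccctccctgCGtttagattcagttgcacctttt
KCND2: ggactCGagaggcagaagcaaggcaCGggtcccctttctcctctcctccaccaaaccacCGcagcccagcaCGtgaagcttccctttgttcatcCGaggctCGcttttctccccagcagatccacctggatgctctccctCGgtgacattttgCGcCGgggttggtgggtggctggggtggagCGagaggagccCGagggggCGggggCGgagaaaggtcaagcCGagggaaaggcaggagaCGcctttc
KCNC1: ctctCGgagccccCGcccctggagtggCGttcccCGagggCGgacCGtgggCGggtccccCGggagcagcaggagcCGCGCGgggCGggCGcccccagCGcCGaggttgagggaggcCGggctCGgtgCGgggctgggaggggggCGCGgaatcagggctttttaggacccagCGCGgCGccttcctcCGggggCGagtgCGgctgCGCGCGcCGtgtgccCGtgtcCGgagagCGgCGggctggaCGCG
CACNA1I: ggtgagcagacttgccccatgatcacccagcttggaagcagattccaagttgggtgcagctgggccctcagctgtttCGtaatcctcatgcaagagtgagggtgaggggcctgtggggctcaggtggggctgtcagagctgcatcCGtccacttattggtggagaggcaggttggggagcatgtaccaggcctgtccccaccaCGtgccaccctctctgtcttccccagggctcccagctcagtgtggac
CACNA1C: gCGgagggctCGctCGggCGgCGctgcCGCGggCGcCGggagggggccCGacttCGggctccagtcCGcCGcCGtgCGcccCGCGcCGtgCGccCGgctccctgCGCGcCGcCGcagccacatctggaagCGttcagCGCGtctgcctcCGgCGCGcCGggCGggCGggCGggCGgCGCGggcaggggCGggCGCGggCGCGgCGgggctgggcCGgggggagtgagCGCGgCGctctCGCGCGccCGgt
Among the 12923 promoters of genes tested, the median was 20 CG (quartiles 12 and 28) and 99.0% held at least 1. The CACNA1I window thus lay below the lower quartile, the KCNC1 and CACNA1C windows above the upper. That contrast does not stand for the called genes. Among those with an entry, the median was 16.5 CG over 10 genes called higher and 15.5 over 12 called lower. Only 61 of the 89 channel genes had an entry, so a comparison of CG content over all the channel genes is void.

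Inward rectifiers, the KCNJ family, pass potassium more readily into the cell than out and hold the resting potential. Of 9 members, 3 were higher (KCNJ8, KCNJ11 and KCNJ10), 3 lower (KCNJ4, KCNJ14 and KCNJ12) and 3 not called. The share called was 33.3% in each direction, against 10.6% higher and 13.5% lower over all genes tested. The higher group held both genes for the pore of ATP-sensitive potassium channels, which open when cellular ATP falls. The lower group consisted of strong rectifiers of the Kir2 subfamily, but KCNJ2, also a Kir2 gene, was not called (log2 fold change 0.03, adjusted p = 0.957).

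KCNJ8 (ENSG00000121361, chr12:21764955-21775600) codes for Kir6.1 and had the highest level per kilobase of exon of all 89 genes in both groups. Its normalized counts were 688, 977, 969 and 616 in Control replicates 1 to 4 and 2041, 2148, 2245 and 1431 in DZNep replicates 1 to 4. No DZNep library reached down to the Control libraries, with replicate 4 the lowest in each group (log2 fold change 1.25 ± 0.21 SE, adjusted p = 0.00101). Per kilobase the level went from 323 ± 74.8 to 783 ± 146 (SD, n = 4).

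KCNJ11 (ENSG00000187486, chr11:17365172-17389331), which codes for Kir6.2, had 249.7, 352, 303 and 204 normalized counts under vehicle and 658, 720.0, 759 and 593 under DZNep. The groups did not overlap, and the means differed 2.46-fold (log2 fold change 1.27 ± 0.19 SE, adjusted p = 0.000521). ATP-sensitive channels need a sulfonylurea receptor beside the pore. ABCC9, the receptor gene 21.8 kb from KCNJ8 on chromosome 12, rose from 38.9 ± 17.3 to 179 ± 74.2 normalized counts (SD, n = 4; log2 fold change 2.16, adjusted p = 0.00136). ABCC8, 3.17 kb from KCNJ11 on chromosome 11, had 143 ± 31.6 and 162 ± 17.5 (log2 fold change 0.16 ± 0.21 SE, adjusted p = 0.586). KCNJ8, KCNJ11 and ABCC9 thus passed the call, and ABCC8 did not.

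KCNJ10, an inward rectifier of glia and kidney tubules, rose from 7.64 ± 2.14 to 33.9 ± 6.905 normalized counts (log2 fold change 2.13 ± 0.34 SE, adjusted p = 0.000758), a gain from few reads. KCNJ4 (ENSG00000168135, chr22:38426327-38455199) codes for Kir2.3 and had the third highest level per kilobase in the Control. It held 399, 259.8, 341 and 546 normalized counts in vehicle-treated and 62.6, 47.5, 65.6 and 74.2 in DZNep-treated libraries. Every DZNep library was far below every Control library, 6.18-fold in the means (log2 fold change -2.66 ± 0.26 SE, adjusted p = 5.74e-05).

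KCNJ12, another Kir2 gene, fell from 666 ± 164 to 294 ± 72.6 normalized counts (log2 fold change -1.21 ± 0.23 SE, adjusted p = 0.00234); its near-identical copy KCNJ18 had 6 counts in all, and reads that fit both cannot be assigned. KCNJ14 fell too (log2 fold change -1.70, adjusted p = 0.0244), but its Control libraries spread from 46.4 to 293 and overlapped the DZNep libraries. That call was lost without Control replicate 1 or 4, or without DZNep replicate 1, 2 or 3. Its exons also overlap those of GRWD1 on the same strand. The 3 inward rectifiers without a call were KCNJ2, KCNJ3 and KCNJ5, with log2 fold changes from -0.88 to 0.03.

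Among the voltage-gated alpha subunits, the Kv4 genes KCND1 and KCND2 rose, and KCNC1, KCNC4, KCNQ5 and KCNB2 fell. Kv4 channels carry the fast, transient A-type current that spaces action potentials. The third Kv4 gene, KCND3, lay above the Control in all 4 DZNep libraries without passing the test (log2 fold change 0.54 ± 0.20 SE, adjusted p = 0.0582).

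KCND2 (ENSG00000184408, chr7:120273175-120750337) had 18.5, 50, 21.5 and 26.9 normalized counts without and 97.04, 109, 94.1 and 52.9 with DZNep. KCND1 (ENSG00000102057, chrX:48961378-48971844) had 27.7, 26.8, 26.9 and 34.4 and 90.7, 79.7, 87.2 and 85.5. Neither gene overlapped between groups, KCND2 by a narrow margin between Control replicate 2 and DZNep replicate 4. KCND2 had a log2 fold change of 1.55 ± 0.36 SE (adjusted p = 0.00659) and KCND1 one of 1.54 ± 0.22 SE (adjusted p = 0.000393).

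Kv3 channels open at strong depolarization and close fast, which lets neurons fire at high rates. KCNC1 (ENSG00000129159, chr11:17734774-17856804) dropped from 353, 504, 391 and 258 normalized counts in the Control to 35.4, 81.3, 70.8 and 32.6 in the DZNep libraries. It was the steepest fall among the potassium channels, 6.84-fold in the means (log2 fold change -2.79 ± 0.34 SE, adjusted p = 0.00017), with replicates 2 and 3 above 1 and 4 in both groups. KCNC4 went from 1020.4 ± 64.2 to 431 ± 40.4 (log2 fold change -1.27, adjusted p = 8.02e-05).

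Kv7 channels carry the M current, a slow potassium current that damps excitability. KCNQ5, one of the brain subunits, fell from 616 ± 159 to 266 ± 57.4 (log2 fold change -1.24, adjusted p = 0.00204).

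The delayed rectifier gene KCNB2 (ENSG00000182674, chr8:72537225-72938349) had 72.5, 87.5, 82.4 and 62.3 normalized counts in vehicle-treated and 21.8, 23.4, 32.8 and 23.6 in DZNep-treated libraries, without overlap (log2 fold change -1.61 ± 0.25 SE, adjusted p = 0.000657). Of the Kv1 genes, KCNA1, known from episodic ataxia, rose from 7.997 ± 3.99 to 22.2 ± 11.6 (log2 fold change 1.41 ± 0.48 SE, adjusted p = 0.0379), with overlap, and lost its call without Control replicate 1, 3 or 4, without DZNep replicate 1, 2 or 3, and without a filter on low counts. KCNA2, KCNA3 and KCNA7 were not called.

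In the EAG, ERG and ELK family, KCNH5 rose from 9.92 ± 6.27 to 31.3 ± 10.9 (log2 fold change 1.58, adjusted p = 0.0179), a call lost without DZNep replicate 3. KCNH3 fell from 249 ± 37.6 to 119.7 ± 16.2 (log2 fold change -1.08, adjusted p = 0.0012), a call lost by the fold threshold without Control replicate 4 and with library sizes alone. KCNH2, the hERG gene that repolarizes the heart muscle cell, rose by less than the fold threshold from 216 ± 20.7 to 381 ± 67.6 (log2 fold change 0.79, adjusted p = 0.00496). KCNH4 was not called.

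The 2-pore-domain channels leak potassium at rest. KCNK9, the acid-sensitive TASK3, rose from 1.54, 3.57, 0 and 5.37 to 30.8, 22.6, 30.2 and 24.7 normalized counts (log2 fold change 3.28 ± 0.58 SE, adjusted p = 0.00146), a large ratio on few reads. KCNK2 (ENSG00000082482, chr1:215005775-215237090), the stretch-sensitive TREK1, had 64.7, 99.1, 78.8 and 68.8 without and 34.5, 20.9, 42.3 and 31.5 with DZNep, without overlap (log2 fold change -1.30 ± 0.28 SE, adjusted p = 0.00429). KCNK6 fell from 187 ± 91.4 to 82.3 ± 19.1 (log2 fold change -1.21, adjusted p = 0.0198), but Control replicate 2, at 97.3, lay below DZNep replicate 4, at 108. Its call was lost without Control replicate 1 or 4, or DZNep replicate 1, 2 or 3. KCNK7 (log2 fold change 1.29, adjusted p = 0.0608) was not called, but was called higher with the replicate block (1.32, adjusted p = 0.0204), with DESeq2 (adjusted p = 0.0421), with library sizes alone (0.0405) and without Control replicate 2 (0.0483). KCNK1, KCNK5 and KCNK15 were not called.

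Calcium-activated potassium channels link calcium entry to potassium exit. None of the 5 genes KCNMA1 and KCNN1 to KCNN4 passed the call with edgeR, DESeq2 or limma, and KCNN1 and KCNN3 had an unadjusted p under 0.05 with edgeR. KCNN1, an SK channel gene, had 448 ± 30.5 normalized counts under vehicle and 752 ± 90.9 under DZNep (log2 fold change 0.72 ± 0.14 SE, adjusted p = 0.00291). It was the second highest of all 89 genes per kilobase in the DZNep libraries. The sodium-activated KCNT2 fell from 237 ± 104 to 113 ± 23.2 with overlap (log2 fold change -1.10, adjusted p = 0.0189), and its call was lost with limma and without Control replicate 2 or 3 or DZNep replicate 1 or 4.

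Silent Kv subunits moved in both directions. KCNS1 (ENSG00000124134, chr20:45091214-45101127) had 12.3, 8.04, 11.6 and 6.45 normalized counts under vehicle and 58.95, 55.6, 87.2 and 47.2 under DZNep, 6.47-fold more in the means (log2 fold change 2.67 ± 0.34 SE, adjusted p = 0.00021). KCNV1 (ENSG00000164794, chr8:109963636-109975771) had 24.7, 74.99, 31.4 and 35.5 and 109, 138, 164 and 85.5, again without overlap (log2 fold change 1.53 ± 0.36 SE, adjusted p = 0.0072). KCNG2 rose from 6.42 ± 2.897 to 21.6 ± 9.47 (log2 fold change 1.71, adjusted p = 0.0171), a call lost without DZNep replicate 2.

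KCNG1 (ENSG00000026559, chr20:51003656-51023107), the most abundant silent subunit, went the other way. Its values were 1264, 1199.9, 1160.0 and 1473 in vehicle-treated and 599, 567, 656 and 631 in DZNep-treated libraries, about equal within each group and apart between them (log2 fold change -1.08 ± 0.14 SE, adjusted p = 0.000211). The change lay close to the fold threshold and dropped under it with library sizes alone as the scaling (-0.99). KCNG3 passed only the p threshold (log2 fold change -0.58, adjusted p = 0.0246), and KCNF1 and KCNS3 were not called.

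The 12 auxiliary potassium channel genes had 2 higher and 3 lower. KCNE4 (ENSG00000152049, chr2:223052190-223198399), a single-span subunit that inhibits several Kv channels, had 18.5, 15.2, 8.96 and 9.67 normalized counts without and 49.9, 28.2, 82.1 and 43.9 with DZNep (log2 fold change 1.95 ± 0.41 SE, adjusted p = 0.00359). KCNIP2, a calcium-binding partner of Kv4 channels, rose from 25.1 ± 5.11 to 56.3 ± 2.08 (log2 fold change 1.14, adjusted p = 0.00474), though 13.1% of its exon bases overlap an antisense RNA. KCNIP3 (ENSG00000115041, chr2:95297327-95386077), of the same family and also known as the transcriptional repressor DREAM, had 287, 217, 199.8 and 362 under vehicle and 52.6, 51.5, 56.1 and 43.9 under DZNep. It fell 5.22-fold without overlap (log2 fold change -2.40 ± 0.24 SE, adjusted p = 5.74e-05), opposite to KCNIP2.

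The Kv beta subunits KCNAB2 and KCNAB3 fell. KCNAB2 (ENSG00000069424, chr1:5990927-6101193) had 558, 568, 664 and 606 normalized counts in vehicle-treated and 223, 237, 253 and 263 in DZNep-treated libraries, with close replicates in both groups (log2 fold change -1.32 ± 0.14 SE, adjusted p = 8.10e-05). KCNAB3 fell from 48.6 ± 11.2 to 17.9 ± 0.986 (log2 fold change -1.46, adjusted p = 0.00208), and KCNAB1 was not called (log2 fold change 0.42, adjusted p = 0.162). The BK beta subunit KCNMB4, the fifth highest gene per kilobase in the Control, had 765, 678, 648 and 981 and 772, 673, 751 and 850.5, and the DZNep values lay within the Control range (log2 fold change -0.04 ± 0.17 SE, adjusted p = 0.87). KCNIP1, KCNIP4 and KCNMB1 to KCNMB3 were not called either.

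**Figure D3:**
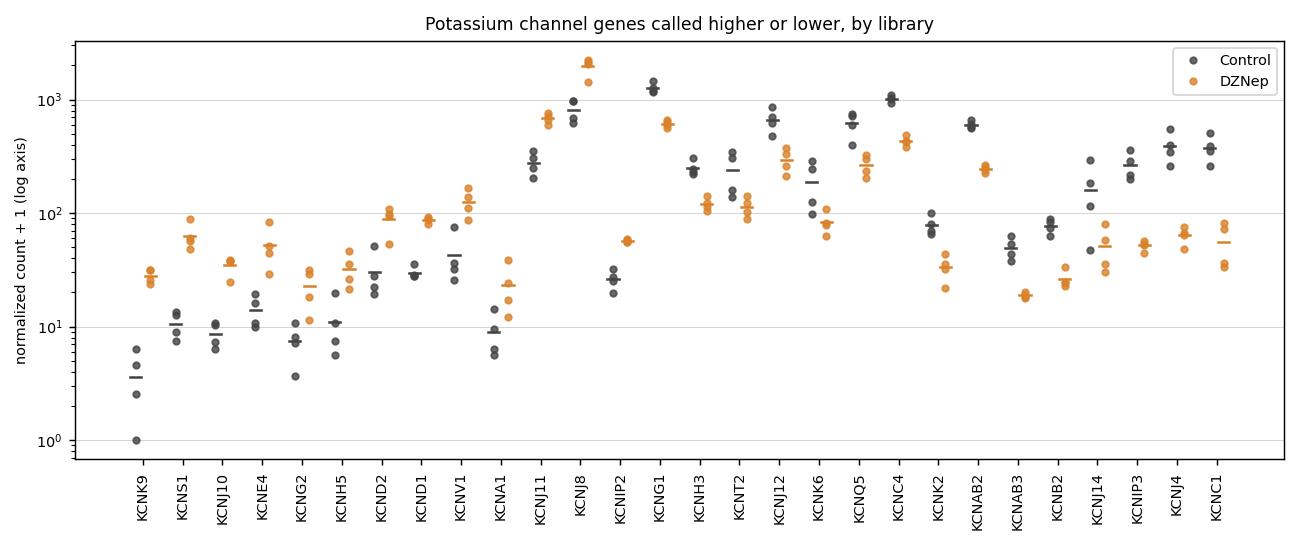
Normalized count + 1 (log axis) of 28 of the 29 called potassium channel genes in each of the 4 Control and 4 DZNep libraries, with a bar at the group mean. The genes on the left rise, most from low counts, while KCNJ8 rises from a mean of 812 to one of 1966, and genes on the right fall, KCNC1 from 377 to 55.0.

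Sodium channel alpha subunits carry the upstroke of the action potential, and single-span beta subunits modulate them. Of 6 alpha genes SCN3A and SCN9A were higher and SCN4A lower (33.3% and 16.7%, against 10.6% and 13.5% of all genes tested). None of the 4 beta genes was called with edgeR, DESeq2 or limma, SCN3B alone having an unadjusted p under 0.05. SCN3A (ENSG00000153253, chr2:165087526-165204050), a brain sodium channel most abundant before birth, had 7.71, 11.6, 14.3 and 6.45 normalized counts without and 82.5, 95.04, 90.7 and 138 with DZNep. The means differed 10.1-fold, and the groups lay far apart (log2 fold change 3.27 ± 0.32 SE, adjusted p = 5.87e-05). With 40 counts over the Control and 437 over the DZNep libraries, SCN3A entered the table through its DZNep reads.

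SCN9A, a channel of peripheral pain neurons, had 116, 206, 153 and 119 under vehicle and 290.2, 418, 422 and 201 under DZNep. Control replicate 2 exceeded DZNep replicate 4, but each DZNep library was above the Control library of its number (log2 fold change 1.13 ± 0.28 SE, adjusted p = 0.009). SCN2A, whose gene body overlaps that of SCN3A head to head on chromosome 2, had 80.9 ± 17.2 and 145 ± 39.8 and passed only the p threshold (log2 fold change 0.81, adjusted p = 0.0287). SCN9A lies 803 kb from SCN2A. SCN8A, on chromosome 12, was not called (log2 fold change 0.36 ± 0.27 SE, adjusted p = 0.328).

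SCN4A (ENSG00000007314, chr17:63938554-63972918), the skeletal muscle channel, had 219, 227, 211 and 143 normalized counts in vehicle-treated and 61.7, 53.96, 64.8 and 39.4 in DZNep-treated libraries, 3.64-fold fewer in the means and without overlap (log2 fold change -1.88 ± 0.24 SE, adjusted p = 0.000205). Among the beta subunits SCN3B passed the p threshold alone (log2 fold change -0.81, adjusted p = 0.0243), and neither SCN2B nor SCN4B was called (log2 fold changes -0.11 and -0.48).

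The calcium channel alpha1 subunits of the table belong to L-type, P/Q- and N-type and low-voltage T-type channels, and all but the last work with beta and alpha2delta subunits. Of 7 alpha1 genes 2 were higher and 3 lower (28.6% and 42.9%, against 10.6% and 13.5% of all genes tested). The T-type genes split: CACNA1H and CACNA1G fell and CACNA1I rose. CACNA1H (ENSG00000196557, chr16:1153106-1221771) had 1244, 2063, 1958 and 1181 normalized counts under vehicle and 241, 284, 319 and 247 under DZNep. The fall of 5.904-fold in the means far exceeded the spread in either group (log2 fold change -2.59 ± 0.22 SE, adjusted p = 2.68e-05).

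CACNA1G (ENSG00000006283, chr17:50560715-50627474) had 183, 229, 177 and 203 in vehicle-treated and 62.6, 92.6, 150.3 and 72 in DZNep-treated libraries, of which replicate 3 came closest to the Control (log2 fold change -1.09 ± 0.28 SE, adjusted p = 0.00988). That call was lost, by the fold threshold, without DZNep replicate 1 or 4 and with library sizes alone. CACNA1I (ENSG00000100346, chr22:39570753-39689735) had 20.04, 11.6, 15.2 and 9.67 and 51.7, 59.6, 83.8 and 41.6, without overlap (log2 fold change 2.06 ± 0.34 SE, adjusted p = 0.00096). Even so, CACNA1I in the DZNep libraries stayed below CACNA1H per kilobase, at 5.48 ± 1.67 against 31.7 ± 4.17 (SD, n = 4).

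The L-type gene CACNA1C (ENSG00000151067, chr12:1970772-2697950), the main calcium channel of heart and smooth muscle, had 219, 130.3, 189 and 196 normalized counts without and 39, 55.6, 42.3 and 27 with DZNep. It fell 4.48-fold without overlap (log2 fold change -2.18 ± 0.27 SE, adjusted p = 0.000186). CACNA1D, also L-type, was not called (log2 fold change 0.52 ± 0.23 SE, adjusted p = 0.103), nor was the N-type gene CACNA1B (log2 fold change -0.58, adjusted p = 0.141). The P/Q-type gene CACNA1A rose from 4.62, 2.68, 4.48 and 17.2 to 36.3, 30.6, 38 and 39.4 (log2 fold change 2.28 ± 0.50 SE, adjusted p = 0.00504). Control replicate 4 alone raised its Control mean, and without that library the log2 fold change was 3.15.

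**Figure D4:**
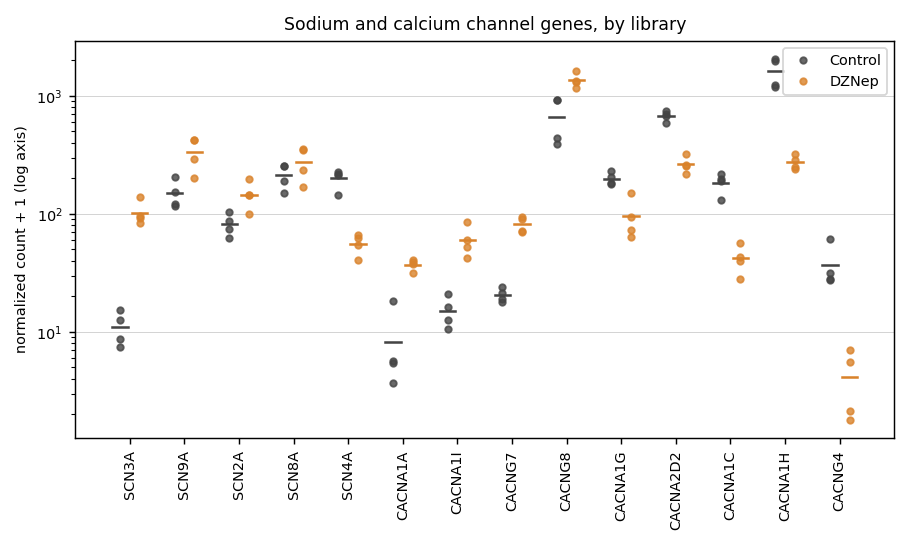
Normalized count + 1 (log axis) in each of the 4 Control and 4 DZNep libraries of 14 sodium and calcium channel genes, with a bar at the group mean. SCN3A moves from a mean of 10.0 to one of 102, CACNA1H from a mean of 1612 to one of 273, and CACNG4 from 36.2 to 3.13.

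Of the auxiliary calcium channel genes, alpha2delta subunits raise the number of channels at the membrane. CACNA2D2 (ENSG00000007402, chr3:50362613-50504244) had 589, 678, 698 and 737 normalized counts under vehicle and 253, 217, 322 and 259.9 under DZNep, without overlap (log2 fold change -1.39 ± 0.17 SE, adjusted p = 0.000153). CACNA2D1 spread widely within each group, at 669, 1763, 1389 and 578 in vehicle-treated and 703, 1059, 929 and 364 in DZNep-treated libraries. It was not called (adjusted p = 0.304), and with the replicate block it passed the p threshold but not the fold threshold (log2 fold change -0.51, adjusted p = 0.00694). CACNA2D3 and CACNA2D4 were not called. None of the 4 intracellular beta subunits CACNB1 to CACNB4 was called with edgeR, DESeq2 or limma, although CACNB1 passed the p threshold (log2 fold change -0.81, adjusted p = 0.0035), the only 1 of the 4 with an unadjusted p under 0.05.

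The CACNG genes code for gamma subunits, several of which serve as partners of AMPA-type glutamate receptors. CACNG7 (ENSG00000105605, chr19:53909278-53943950) had 23.1, 16.96, 17.9 and 20.4 normalized counts without and 68.9, 70.9, 89.8 and 92.2 with DZNep, 4.105-fold more in the means (log2 fold change 2.01 ± 0.25 SE, adjusted p = 0.000176). CACNG8, 19.0 kb away on chromosome 19, had 919, 441, 388 and 922 under vehicle and 1169.9, 1335, 1311 and 1611 under DZNep. Control replicates 1 and 4 lay well above replicates 2 and 3, and all DZNep libraries lay above both pairs. The log2 fold change of 1.00 ± 0.29 SE (adjusted p = 0.0191) just missed the fold threshold. It exceeded that threshold with the replicate block (1.10, adjusted p = 0.000165), DESeq2 (1.04), limma (1.13) and each other scaling or filter tried (1.02 to 1.11). Without Control replicate 2 (0.84), Control replicate 3 (0.80) or DZNep replicate 4 (0.91) it stayed under, and without any other library it exceeded the threshold. CACNG6, the next gene at 1.42 kb, was not called (log2 fold change -0.22, adjusted p = 0.668). CACNG4, on chromosome 17, fell from 36.2 ± 16.1 to 3.13 ± 2.58, the largest fall of all 89 genes and one on few reads (log2 fold change -3.49 ± 0.57 SE, adjusted p = 0.000875). With 136 counts over the Control and 14 over the DZNep libraries, it entered the table through its Control reads.

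Summed per kilobase of exon, the 60 potassium channel genes had 2373 ± 116 normalized counts per kilobase under vehicle and 2346 ± 210.2 under DZNep (SD, n = 4; a description, with no test), so their total hardly shifted while its makeup did. KCNJ8 gave 9.64% of the summed level of all 89 genes under vehicle and 25.3% under DZNep. The inward rectifiers went from 764 ± 55.0 to 1052 ± 164, with DZNep replicate 4 (819) close to the highest Control library (805). Kv4 went from 12.4 ± 2.54 to 32.8 ± 3.96. The alpha1 calcium genes went from 227 ± 53.1 to 60.6 ± 13.2, of which CACNA1H made up 82.5% in the Control and 52.3% with DZNep. The sodium alpha genes overlapped between the groups, at 106 ± 21.3 (84.4 to 134) and 91.8 ± 13.5 (77.2 to 105).

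In the order of levels per kilobase, KCNJ8 (323 ± 74.8) was followed in the Control by KCNG1 (235 ± 25.7), KCNJ4 (187 ± 58.4), CACNA1H (187 ± 53.8) and KCNMB4 (158 ± 30.97). KCNG1 lay above KCNJ4 by more than its own SD but less than that of KCNJ4, and the last 3 lay within 1 SD of each other. In the DZNep libraries KCNJ8 (783 ± 146) was followed by KCNN1 (176 ± 21.3), KCNMB4 (157 ± 15.05) and CACNG8 (153 ± 20.8), the last 3 with overlapping SD ranges. KCNG1 moved to rank 6, CACNA1H to 19 and KCNJ4 to 20. Of the 12 highest genes in the Control, 6 were called lower and 1, KCNJ8, higher. Among all genes tested at or above the median level of the channel genes, 11.8% were lower and 6.03% higher. The 12 were ranked by the same Control values that enter the calls, so their count is no separate result. The ranks depend on the union of exons as length. With the longest transcript instead, KCNJ8 stayed first in the Control means, KCNG1 came close to it, and KCNK1 passed KCNJ4 and CACNA1H.

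**Figure D5:**
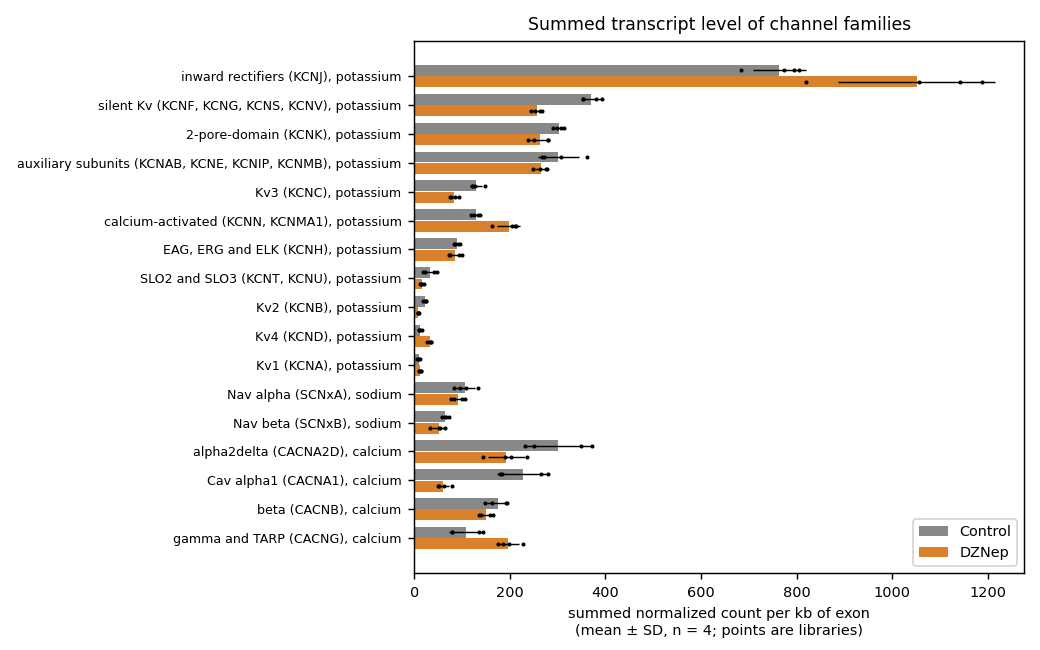
Summed normalized count per kilobase of exon for 17 channel families (mean bars from 0, SD, n = 4 libraries shown as points) in Control and DZNep. The inward rectifiers go from 764 to 1052 and the alpha1 calcium genes from 227 to 60.6.

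Genes that work with the channels were taken from 6 lists. Of 9 tested partners of potassium channels, 1 was higher, the sulfonylurea receptor gene ABCC9, and 1 lower. Each was 11.1% of the list, near the shares of all genes tested (10.6% higher and 13.5% lower). Of 20 tested partners of sodium and calcium channels 5 were higher and 2 lower (25% and 10%, against 10.6% and 13.5% of all genes tested). REM2, a small GTPase that inhibits calcium channels, rose from 15.7 ± 7.82 to 70.5 ± 15.3 (log2 fold change 2.14, adjusted p = 0.00114), as did the muscle adaptor STAC3 (log2 fold change 1.35). The active-zone gene RIMS2 fell (log2 fold change -1.02, adjusted p = 0.0103).

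Other cation channels had 7 of 52 tested genes higher and 17 lower (13.5% and 32.7%, against 10.6% and 13.5% of all genes). SCNN1A, the alpha subunit of the epithelial sodium channel, rose from 3.84 ± 2.59 to 88.8 ± 10.3 (log2 fold change 4.50, adjusted p = 0.000131), while SCNN1D, its delta subunit, fell from 133 ± 23.1 to 15.8 ± 2.62 (log2 fold change -3.09, adjusted p = 1.94e-05). RYR1, the calcium release channel of skeletal muscle, rose (log2 fold change 2.79), as did TRPV3 (2.09). TRPC1 (-2.34) and the mechanically gated PIEZO2 (-2.30) fell. Of 30 pumps and exchangers 2 were higher (6.67%, and as many lower), the SERCA calcium pumps ATP2A3 (log2 fold change 1.25) and ATP2A1 (1.13), and 2 lower, SLC8A3 (-1.86) and SLC12A7 (-1.02), the last with a log2 fold change of -0.98 and so no call with the replicate block.

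REST, a repressor of many neuronal channel genes, was not called (log2 fold change 0.24 ± 0.25 SE, adjusted p = 0.483). Of 18 genes of REST and its corepressors CTDSP2 alone was called (higher, log2 fold change 1.01, adjusted p = 0.0116). That was 5.56% higher and 0% lower, against 10.6% and 13.5% of all genes. By the adjusted p without the fold threshold, 7 of these 18 were higher (38.9%, against 19.1% of all genes), and their median log2 fold change was 0.41. Of 34 neuronal vesicle and synaptic genes, which share 1 gene with the partners, 7 were higher and 4 lower (20.6% and 11.8%, against 10.6% and 13.5% of all genes), with UNC13A (log2 fold change 2.36) and SCG3 (1.96) rising and CPLX1 (-2.94), CELF4 (-1.59) and MAPT (-1.02) falling.

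Channel genes outside the table are given as raw counts summed over each group, with no test. Of the 38 with reads, 28 had more counts in the DZNep and 10 in the Control libraries, whose totals were 162362822 and 146668034. The same share over all genes of so few counts was not computed, so this split is not a result about channel genes. SCN1A, on chromosome 2 like SCN3A, went from 0 to 64 counts, the gamma gene CACNG5 from 11 to 68 and the L-type gene CACNA1F from 8 to 52. KCNJ13 went from 32 to 11 and KCNJ1 from 28 to 9.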

How the data were processed

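RNA from 8 HEK293T samples was extracted and sequenced as paired 150 bp reads by a service provider. Per the labels and methods, the authors used Trimmomatic 0.36 for trimming, STAR 2.5.2b for alignment on GRCh38 and featureCounts (Subread 1.5.2) for unique reads in exons. They deposited these raw counts for 57500 genes and a table of normalized counts for 19118 genes. The latter is a signal in which the authors divided each count by 1 size factor per library. The annotation release and strandedness are not given in the sources used here, so overlapping and antisense genes cannot be told apart. Symbols and coordinates come from GENCODE v44 (GRCh38), with 56410 of 57500 identifiers matched.

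Counts were tested with edgeR 4.0.16 in R 4.3.3 (quasi-likelihood test, TMM, filterByExpr), with Benjamini-Hochberg adjustment over 19171 genes. A call needed an adjusted p under 0.05 and a log2 fold change beyond 1 in size, and the standard error is the absolute log2 fold change over the square root of F. On simulated counts with 200 changed genes among 18761 tested, 188 were recovered and 8 others called. The changed genes were drawn from those of more reads and were changed by more than the fold threshold. The recovery thus does not cover genes of few reads or changes near that threshold. Normalized counts served as levels, divided by the union of exons where genes are compared. Library totals are given with the samples, and depth limits the genes of few reads most.

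Members named with every library were called, did not overlap between groups and averaged at least 50 normalized counts in a group, up to 6 potassium, 3 sodium and 4 calcium genes in each direction by fold change. The 5 highest genes per kilobase, and the highest of each ion, were added, and 3 called genes of a list in each direction. Values by library of other genes were added after they were seen. Members and lists were chosen with earlier results of these data known. For replicates 1 to 4, deviations of the Control and DZNep library from their group means correlated at 0.14, 0.49, 0.43 and 0.67, all over 0.1, so the numbers were treated as pairs, although Control replicate 1 matched DZNep replicate 4 best. The authors used the Wald test of DESeq2 with no such term stated, and the main test here had none. Alternatives were DESeq2 1.42.0, limma 3.58.1 on log2(normalized count + 1), other scalings and filters, other thresholds, the replicate block and leaving out each library. The results of some genes are not reported here, and the plots leave their names out. Protein measurements were not analysed here.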

Additional observations from a re-analysis of the deposited data

Results flagged for a closer look

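In 8 of 132 groups of 4 libraries, over 66 channel genes, 1 library stood apart from the other 3 by Dixon's criterion, a number to set against the 1 in 20 groups that chance flags. Control replicate 4 was that library in 3 of the 8. It held 60.2 normalized counts of CACNG4 (others 26.8 to 30.8), 34.4 of KCND1 (26.8 to 27.7) and 17.2 of CACNA1A (2.68 to 4.62). Among the DZNep libraries, replicate 1 held 23.6 of KCNJ10 (37.1 to 37.9) and 257 of CACNB2 (265 to 267). Replicate 2 held 618 of KCNN1 (777 to 809) and 16.9 of KCNN2 (37.1 to 40.6), and replicate 3 held 32.8 of KCNB2 (21.8 to 23.6). The calls of CACNG4, KCND1, CACNA1A, KCNJ10 and KCNB2 held without any 1 library.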

How the results depend on the processing

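Of the 39 called channel genes examined one by one, 30 (15 higher and 15 lower) stayed called under every other tool, scaling, filter and left-out library in which they were tested, and no called gene changed sign. The 9 that were lost are CACNA1G, KCNK6, KCNH3, KCNH5, KCNA1, KCNT2, KCNJ14, KCNG1 and KCNG2. Leaving out 1 library gave 17 to 19 channel genes higher and 18 to 21 lower, potassium channel genes 11 to 14 and 13 to 15, and lists of partners 19 to 24 and 19 to 25. With the replicate block, 20 channel genes were higher and 22 lower, and beyond CACNG8, KCNK7 and SLC12A7 it changed no call of a gene named. With glmTreat against a log2 fold change of 1, 8 channel genes were higher and 11 lower (potassium 4 and 6, sodium 1 higher), as were 8 and 8 genes of the lists. The same test called 942 genes higher and 1066 lower over all genes tested. Requiring at least 10 reads in every library left 68 channel genes, of which 9 were higher (potassium 6, sodium 1) and 21 lower. That was a split of 9 to 21 in place of 18 to 22. All genes tested moved the same way, to 1141 higher and 1950 lower in place of 2041 and 2589. The direction of that shift is thus not particular to the channel genes. Without a fold threshold 3 sodium channel genes were lower and 42 list genes higher. With the longest transcript as length, the ratio of summed levels was 0.304 in place of 0.267 for the alpha1 calcium genes and 0.558 in place of 0.639 for Kv3. The cause of these shifts was not tested, apart from the fewer genes tested. Genes near 0 and not called changed sign. CACNB3 (-0.01) went to 0.0236 with DESeq2, 0.0147 with median-ratio factors, 0.0817 with unscaled library sizes, 0.0243 without a filter, 0.0206 with at least 10 reads, 0.0095 with limma and from -0.063 to 0.0835 without 1 library. KCNN2 (-0.01) went to 0.0201, 0.0121, 0.0677, 0.0192 and 0.0226 with the first 5 of these and from -0.11 to 0.22 without 1 library. KCNMB4 (-0.04) went to 0.054 with unscaled library sizes, 0.0028 with limma and from -0.12 to 0.10 without 1 library. When 1 library was left out, KCNMA1 ran from -0.22 to 0.0134, KCNN4 from -0.20 to 0.31 and SCN2B from -0.22 to 0.12. Depth limits the genes of few reads, of which 6 members had at most 120 counts in all.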
